A study of Homo sapiens with 12 samples.

Results

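The 10 miRNA genes described here are MIR21, MIR16-1, MIR18A, MIR93, MIR106B, MIR34A, MIR181A1, MIR182, MIR183 and MIR96, which encode miRNAs outside the let-7 family with known links to cancer. They were chosen by the presence of an AGO2 eCLIP region on their hairpin, so that their presence in the lists is how they were selected and not a finding. They are 10 of the 34 miRNA genes that a region overlapped, out of 1913 miRNA genes in the RefSeq annotation of GRCh38.p14. In eCLIP, ultraviolet light fixes RNA to the proteins that touch it, an antibody pulls down a protein of interest (IP), and the RNA that comes with it is sequenced.

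All samples came from HCT116, a long-established line of human colorectal cancer cells, and AGO2 was recovered with an anti-FLAG antibody. The 12 samples formed 6 groups of 2, an IP and an input from cells with the mutant FH-AGO2 5xA, cells with wild-type FH-AGO2 (WT) and AGO2 knockout cells. In 5xA a cluster of phosphorylated residues of AGO2 is replaced by alanine; the sources used here do not say whether the FH-AGO2 cells keep AGO2 of their own. The data analysed were a list of 2921 regions for the 5xA IP and a list of 1190 regions for the WT IP, each pooled by the authors over 2 IP replicates. With 1 list per genotype no value below has a replicate error, no test was made, the sequencing depth is unknown, and a difference between the lists cannot be told apart from a difference in depth or threshold. A list records that a region was reported and where; it gives no amount of RNA.

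A miRNA gene is transcribed as a long primary transcript in which the miRNA lies in a stem-loop, the hairpin. The nuclease Drosha cuts the base of the stem and releases the pre-miRNA, Dicer removes the loop, and an Argonaute protein such as AGO2 keeps a strand of the resulting duplex, from the 5p arm (upstream of the loop) or the 3p arm (downstream of it). Bases 2 to 8 of the retained strand, the seed, pair with target mRNAs. In tumours, miR-21 and the miR-17/92, miR-106b/25 and miR-183 clusters are best known as growth-promoting, while miR-16 and the p53-induced miR-34a are best known as growth-restraining.

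Mature 5p sequences from RefSeq are shown first because the described genes fall into groups by seed, here in capitals. MIR106B and MIR93 encode miRNAs with the same seed, that of the miR-17 family, and the seed of miR-18a-5p differs from it by A4G (the base of miR-106b-5p, its position from the 5′ end, the base of miR-18a-5p).
miR-106b-5p: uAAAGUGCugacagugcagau
miR-93-5p: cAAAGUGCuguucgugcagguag
miR-18a-5p: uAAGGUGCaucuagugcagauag

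The cluster of MIR182, MIR96 and MIR183 encodes 3 similar seeds. From miR-182-5p to miR-96-5p the seed changes by A8C, and from miR-96-5p to miR-183-5p by U2A, with positions counted in the same way.
miR-182-5p: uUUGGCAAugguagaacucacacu
miR-96-5p: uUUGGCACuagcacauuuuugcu
miR-183-5p: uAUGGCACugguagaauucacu

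The other 4 genes each have a seed of their own among the described genes.
miR-21-5p: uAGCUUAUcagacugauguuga
miR-16-5p: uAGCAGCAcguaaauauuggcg
miR-34a-5p: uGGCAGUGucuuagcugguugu
miR-181a-5p: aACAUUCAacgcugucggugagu

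Apart from MIR106B and MIR93, whose seed is the same, no gene that shares a seed with a described gene held a region in either list. In the RefSeq table used, the miR-16-5p seed occurs in mature miRNAs of 7 other genes, the miR-181a-5p seed in 6 others, and the miR-17 family seed in 8 genes in all. The mature miR-16-5p is also made from MIR16-2, and mature miR-181a-5p from MIR181A2, with identical letters. Neither MIR16-2 nor MIR181A2 held a region. The sources used here do not say how reads that match both copies were assigned.

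All 10 genes held a 5xA region, against 7 with a WT region, and MIR182, MIR96 and MIR183 were the 3 without one. Over all 1913 miRNA genes, 1.78% held a 5xA region and 1.10% held a WT region, and of the 34 with a 5xA region 61.8% also held a WT region. Since these overlaps are what selected the genes, nothing is read from the counts. The WT region of each of the 7 overlapped its 5xA region, and every region was on the strand of its miRNA. The regions covered all of the 5p arm in 10 of 10 genes with 5xA and in 7 of 7 with WT. The 3p arm, annotated in the table for 9 genes, was covered in full in 9 of 9 with 5xA and in 6 of 6 with WT. These 9 genes have at most 65 bases from the first 5p base to the last 3p base. Their regions are at least 65 bases wide, so one that begins at the first 5p base covers the 3p arm by width alone. With 5xA, regions covered 12 of 22 bases of the 3p arm in MIRLET7B and 8 of 21 in MIRLET7G. In MIRLET7A2 all 22 were covered.

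Hairpins are printed to show which letters the regions took in. Capitals mark the bases inside the 5xA region, and the coordinates are those of the hairpin on GRCh38.p14, whose chromosomes match hg38. In MIR34A, MIR181A1 and MIR182, whose annotated hairpins are long, both ends of the hairpin stayed outside the region.
MIR34A hairpin, chr1:9151668-9151777, minus strand: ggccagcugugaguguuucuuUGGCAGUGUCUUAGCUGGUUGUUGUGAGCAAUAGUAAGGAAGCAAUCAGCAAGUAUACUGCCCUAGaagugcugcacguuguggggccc
MIR181A1 hairpin, chr1:198859044-198859153, minus strand: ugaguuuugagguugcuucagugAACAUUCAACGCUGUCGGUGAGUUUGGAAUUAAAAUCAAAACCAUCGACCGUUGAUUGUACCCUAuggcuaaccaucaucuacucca
MIR182 hairpin, chr7:129770383-129770492, minus strand: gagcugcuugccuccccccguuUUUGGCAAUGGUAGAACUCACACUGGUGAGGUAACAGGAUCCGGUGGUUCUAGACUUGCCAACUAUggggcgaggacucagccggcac

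In MIR16-1 and MIR96 shorter ends were left out, in MIR18A little more than the first bases, and in MIR21 none at the downstream end.
MIR16-1 hairpin, chr13:50048973-50049061, minus strand: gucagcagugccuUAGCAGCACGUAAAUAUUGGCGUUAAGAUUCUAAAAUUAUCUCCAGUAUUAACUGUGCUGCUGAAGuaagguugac
MIR96 hairpin, chr7:129774692-129774769, minus strand: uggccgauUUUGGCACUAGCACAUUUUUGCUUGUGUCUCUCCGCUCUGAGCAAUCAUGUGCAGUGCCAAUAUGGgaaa
MIR18A hairpin, chr13:91350751-91350821, plus strand: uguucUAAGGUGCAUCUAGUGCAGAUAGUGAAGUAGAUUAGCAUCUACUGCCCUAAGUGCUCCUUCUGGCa
MIR21 hairpin, chr17:59841266-59841337, plus strand: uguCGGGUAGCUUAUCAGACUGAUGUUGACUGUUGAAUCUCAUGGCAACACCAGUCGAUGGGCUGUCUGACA

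In MIR106B the 5xA region ran on past the downstream end of the hairpin.
MIR106B hairpin, chr7:100093993-100094074, minus strand: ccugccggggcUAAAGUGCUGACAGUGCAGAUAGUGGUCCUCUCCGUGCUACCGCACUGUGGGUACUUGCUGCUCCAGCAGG

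In most of the genes the upstream edge of the region lay at the first base of the miRNA itself. In 8 of 10 genes the 5xA region began exactly at the first base of the 5p arm, and in 6 of 7 genes the WT region did. The exceptions were MIR21 in both lists and MIR93 in the 5xA list. Among the other miRNA genes with a region and an annotated 5p arm, 7 of 8 let-7 genes and 6 of 10 remaining genes began there in the 5xA list, and 6 of 6 and 3 of 4 did in the WT list. The edge at the first 5p base was therefore shared with let-7 and is not particular to these genes.

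In every region at the described genes where the 3p arm is annotated, the downstream edge lay at least 1 base past it. Where a region begins at the first 5p base, this distance is its width minus the distance from the first 5p base to the last 3p base. The examples from the described genes therefore cannot show whether the edge follows the width or the arm. Of the 9 distinct 5xA regions at these genes 7 were 65 or 66 bases wide, and of the 7 WT regions 6 were. In MIR182 and MIR96, where 65 bases separate the first 5p base from the last 3p base (both included), the 5xA region ended 1 base past the 3p arm. In MIR183, where this arm-to-arm span is 61 bases, it ended 4 bases past the 3p arm. The same held in the WT list, where the MIR93 region ended 4 bases past the arm with a span of 61 bases and the MIR34A region 1 base past it with a span of 64 bases. In let-7 hairpins with longer spans, regions that began at the first 5p base did not all pass the 3p arm. With 5xA, the 66-base region of MIRLET7B (span 76) ended 10 bases before the last 3p base. The 65-base region of MIRLET7G (span 78) ended 13 bases before it. With WT, the 78-base region of MIRLET7I (span 78) ended at that base. What sets the downstream edge was not tested. A width of 65 bases was also the most common in each list, with 88 of 2921 5xA regions and 22 of 1190 WT regions, and few were narrower: 6.71% of 5xA regions and 0.42% of WT regions lay under 65 bases. The median over the whole lists was 104 bases with 5xA and 114 bases with WT. Apart from the 291-base 5xA region described below, the regions at these genes lay at the narrow end of both lists, and the sources used here do not say how the authors set region edges.

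**Figure D1:**
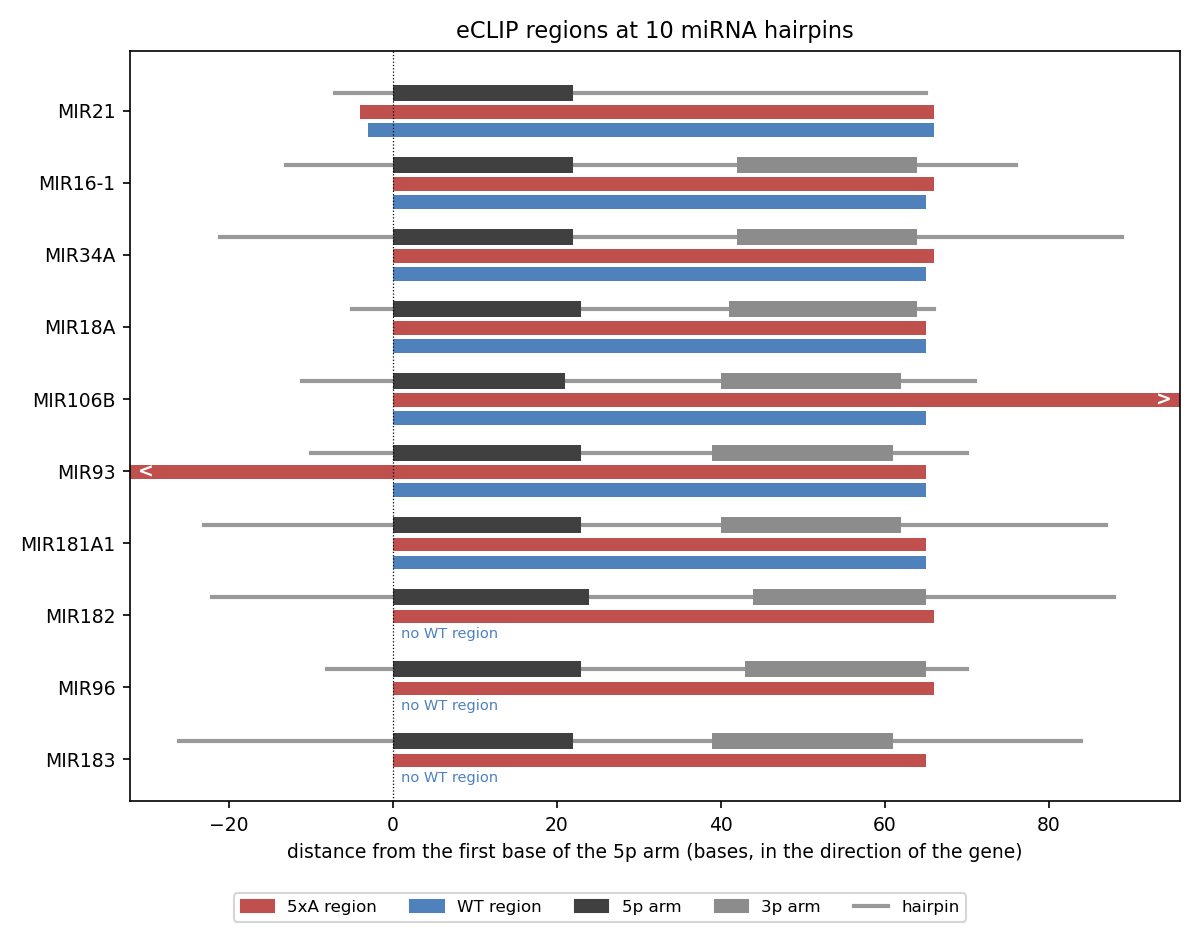
Regions at the 10 genes, aligned at the first base of the 5p arm (x axis, bases in the direction of the gene). The grey line is the hairpin, dark and light boxes are its 5p and 3p arms, red bars are 5xA regions and blue bars WT regions; arrowheads mark the 291-base 5xA region that runs on between MIR106B and MIR93. Apart from MIR21 and that region, all bars start at 0 and end at 65 or 66 bases.

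MIR21, whose miRNA is among the most abundant in epithelial tumours, held a 5xA region of 70 bases at chr17:59841269-59841338 and a WT region of 69 bases at chr17:59841270-59841338. They began 4 bases (5xA) and 3 bases (WT) before the first base of miR-21-5p and ended 1 base beyond the hairpin. They covered 95.8% (5xA) and 94.4% (WT) of its 72 bases. Among the 10 genes, MIR21 was the one whose region reached a few bases upstream of the 5p arm in both lists.

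MIR16-1, whose locus is deleted in many chronic lymphocytic leukaemias, held a 66-base 5xA region at chr13:50048983-50049048 and a 65-base WT region at chr13:50048984-50049048. MIR34A, a transcriptional target of p53, held a 66-base 5xA region at chr1:9151691-9151756 and a 65-base WT region at chr1:9151692-9151756. In both genes the lists shared the upstream edge and the 5xA region was 1 base longer at the downstream edge. The covered share of the hairpin was 74.2% (5xA) and 73.0% (WT) in MIR16-1, and 60.0% (5xA) and 59.1% (WT) in MIR34A, a gene whose annotated hairpin of 110 bases includes 21 bases before the 5p arm.

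MIR18A and MIR181A1 had identical regions in the 2 lists. The region of MIR18A, a gene of the MYC-induced miR-17/92 cluster, spanned chr13:91350756-91350820 and covered 91.5% of the hairpin. The region of MIR181A1, whose miRNA tunes signalling in developing lymphocytes, spanned chr1:198859066-198859130 and covered 59.1% of the hairpin. Across the 7 genes in both lists, the upstream edge was the same base in 5 and the downstream edge in 4.

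MIR106B and MIR93 lie 145 bases apart in the direction of transcription and gave the one difference in shape between the lists. With 5xA a single region of 291 bases, chr7:100093773-100094063, took in both hairpins and the bases between them. With WT there were 2 regions of 65 bases, chr7:100093999-100094063 on MIR106B and chr7:100093773-100093837 on MIR93, with 161 bases between them that no WT region covered. The outer edges agreed to the base: the 5xA region began at the first base of miR-106b-5p, as the MIR106B region did in WT, and ended where the MIR93 region ended in WT. Under a reciprocal overlap of 50% neither WT region matches the 5xA region, and 5 genes instead of 7 count as shared.

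MIR182, MIR96 and MIR183 each held a region with 5xA, and WT had no region on any of them. The miRNAs of this cluster are known from sensory organs and are raised in many carcinomas. The 5xA regions were chr7:129770405-129770470 on MIR182 (66 bases), chr7:129774696-129774761 on MIR96 (66 bases) and chr7:129774924-129774988 on MIR183 (65 bases). They covered 60.0%, 84.6% and 59.1% of the hairpins in that order. MIR96 and MIR183 lie 135 bases apart, and MIR182 lies 4199 bases downstream of MIR96, and the 3 regions were separate. In the WT list no region lay within 20 kb of these hairpins on either strand. All 3 genes of the cluster were present in the 5xA list, while 4 other clusters with a described gene were covered in part.

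Those 4 clusters held 8 further miRNA genes, and none of them had a region in either list. In the miR-17/92 cluster, MIR18A was covered and MIR17, MIR19A, MIR20A, MIR19B1 and MIR92A1 were not, although the 6 hairpins share a primary transcript. MIR17 ended 67 bases before the MIR18A region and MIR19A began 70 bases after it. MIR15A lay 70 bases from the MIR16-1 region, MIR181B1 83 bases from the MIR181A1 region, and MIR25 129 bases from the MIR93 region. These are the hairpins just outside the 1-base overlap rule; just inside it, the smallest overlap of a described gene was 65 bases. Of 11 paralogs on other loci (such as MIR16-2, MIR15B and MIR106A) and 28 further cancer-linked miRNA genes (such as MIR155, MIR31, MIR200C and MIR192), 0 held a region in either list. Both sets were written with the genes that hold regions known, so nothing is read from these counts, and miRNA genes outside both sets, such as MIR191, MIR7-1 and MIR340, did hold one.

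**Figure D2:**
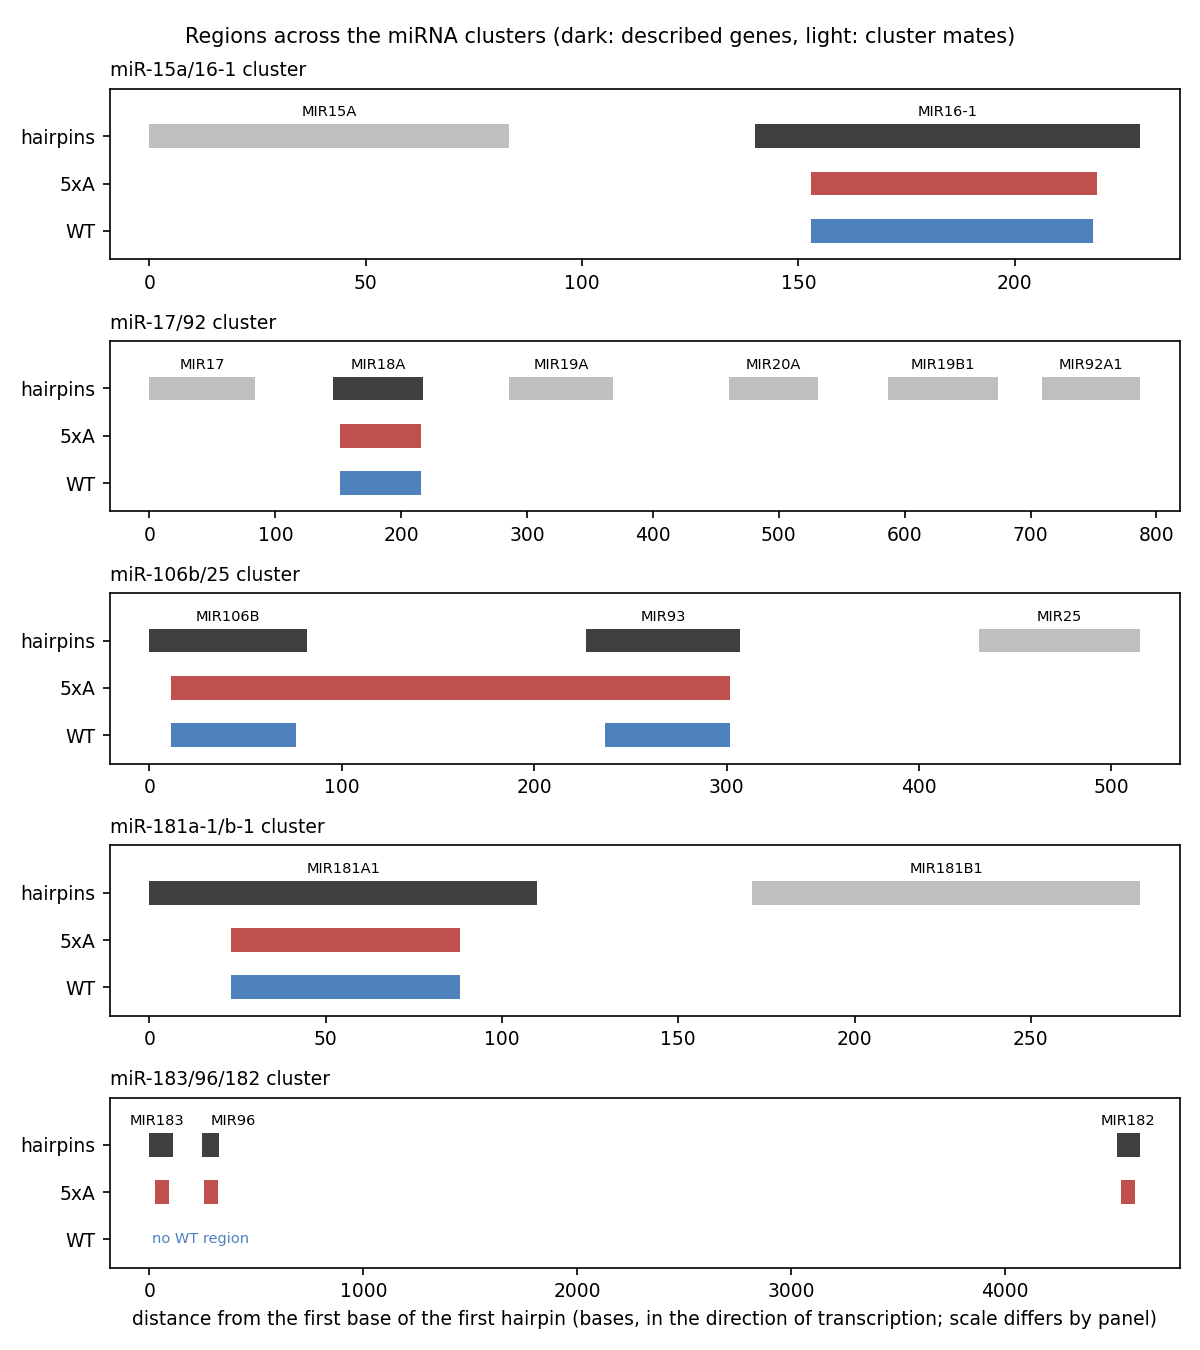
The 5 clusters that hold described genes, drawn in the direction of transcription with the distance from the first hairpin on the x axis (bases; the scale differs between panels). Dark boxes are described hairpins and light boxes cluster mates, above the 5xA regions (red) and WT regions (blue). The 8 cluster mates carry no region, and a single 5xA region of 291 bases joins MIR106B and MIR93, where the WT list has 2 regions.

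The covered hairpins had a longer distance from arm to arm than the mates in their own cluster. This span, taken from the annotation and not from the regions, was compared after the data had been seen. It was 61 to 65 bases in the 9 described genes with both arms annotated (median 64) and 58 to 61 bases in the 8 cluster mates (median 59). Within the clusters, MIR18A had 64 bases against 58 to 61 in its 5 mates, MIR16-1 had 64 against 59 in MIR15A, MIR181A1 had 62 against 61 in MIR181B1, and MIR106B and MIR93 had 62 and 61 against 60 in MIR25. Each described gene of these clusters therefore had a longer span than every mate in its own cluster, by 1 to 6 bases. Over all 807 miRNA genes with both arms annotated, 42.5% had a span of 61 bases or more, with a median of 60.

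The other miRNA genes with a region also had long spans. The 7 let-7 genes with both arms annotated spanned 67 to 78 bases, and of 9 remaining genes 8 spanned 61 bases or more. The exception was MIR10399, with 58 bases, whose hairpin met its 5xA region by 1 base. Most genes with a long span held no region, 319 of the 343 with 61 bases or more. Among them, MIR16-2 and MIR18B, paralogs of MIR16-1 and MIR18A, span 65 bases, MIR192 also spans 65 and MIR29B1 64. Expression of these genes was not measured in the lists, and the part that read length, mapping or region width plays in the pattern was not tested.

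**Figure D3:**
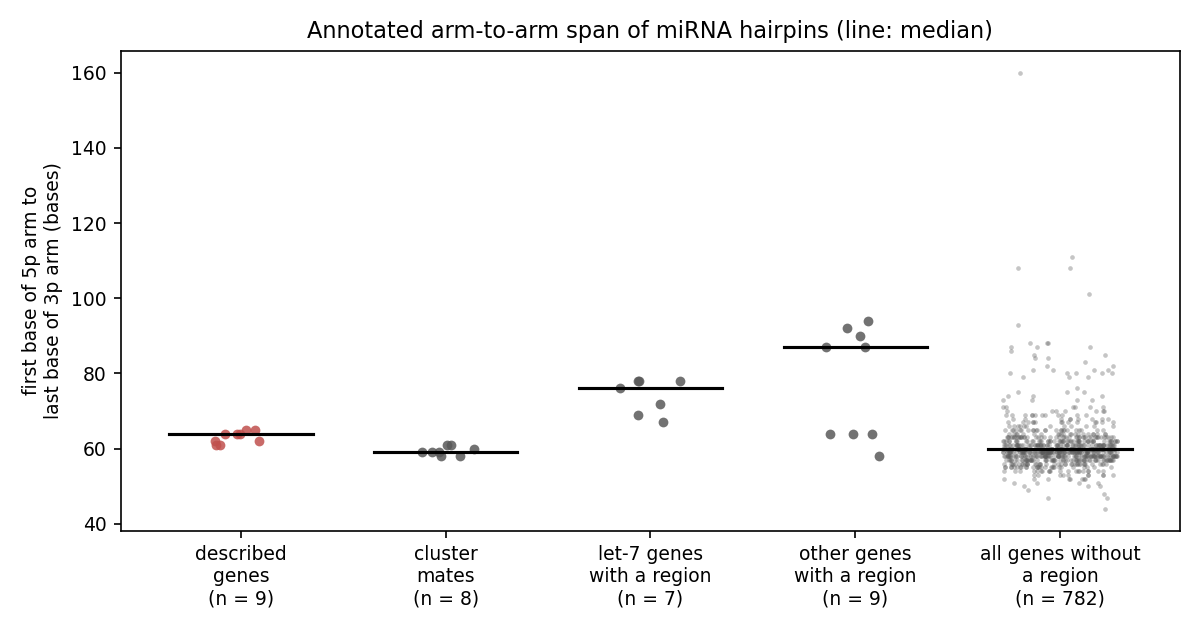
Annotated distance from the first base of the 5p arm to the last base of the 3p arm (y axis, bases) for described genes, cluster mates, let-7 genes and other genes with a region, and all genes without a region, which include the mates. Points are genes and lines are medians. The 9 described genes lie at 61 to 65 bases and the 8 cluster mates at 58 to 61.

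In the host genes every region of either list overlapped a described hairpin. MIR21 lies in the span of VMP1, an autophagy gene, MIR106B, MIR93 and MIR25 in that of MCM7, a subunit of the replicative helicase, and MIR16-1 in the lncRNA gene DLEU2. MIR18A, MIR34A and MIR181A1 lie in the lncRNA genes MIR17HG, MIR34AHG and MIR181A1HG. Each of these 6 hosts held 1 region with 5xA, and with WT MCM7 held 2 and the others 1 each. All of them were the regions described above, including the 5xA region that also covers the 145 bases between MIR106B and MIR93, and 0 were separate from a described hairpin, although the spans run from 6891 bases (MIR17HG) to 142993 bases (DLEU2). No gene of the annotation spans MIR182, MIR96 or MIR183. Within 20 kb of any of the 10 hairpins, no region of either list lay away from them.

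Genes of miRNA biogenesis and its regulation were set beside the miRNA genes. Of 17 biogenesis genes, 4 (23.5%) held a 5xA region and 3 (17.6%) a WT region, beside 7.70% and 3.45% of all 20056 protein-coding genes. The list is short and was written with earlier results of these data known, and the background includes genes that these cells do not express. Nothing is therefore read from these shares. DICER1, the nuclease that removes the loop, held 8 and 4 regions (5xA and WT), AGO2 3 and 3, AGO4 1 and 1, and RAN, the GTPase of pre-miRNA export, 1 and 0. Whether the AGO2 regions come from RNA that encodes FH-AGO2 or from AGO2 RNA of the cells' own cannot be told from the lists. DROSHA, DGCR8 and XPO5, which cut and export the precursors, held none in either list.

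Reported targets of the described miRNAs were taken from 7 lists with 130 different genes. Of these, 40 (30.8%) held a 5xA region and 33 (25.4%) a WT region, beside the same 7.70% and 3.45% of all protein-coding genes. Of the 130 genes, 30 were in both lists, 10 in the 5xA list alone and 3 in the WT list alone. No such split was taken over all protein-coding genes, so nothing is read from it. The lists were written with earlier results of these data known, so the gap to the background is not a result about the targets. The background also includes genes that these cells do not express, and a region does not show which miRNA guided AGO2 there. The counts are a description.

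The target lists differed in the share of genes with a region. Each holds only 17 to 33 genes and some genes are shared between lists, so the order of the lists is not read as a result. Targets of miR-16 had 9 of 18 genes with a 5xA region and 7 with a WT region. They were led by the cyclin gene CCND1 (6 and 5 regions), the survival gene MCL1 (4 and 3), the cyclin-dependent kinase gene CDK6 (5 and 1), the chromatin protein gene HMGA1 (3 and 2), the phosphatase gene CDC25A (4 and 1) and the checkpoint kinase gene WEE1 (2 and 2). Targets of the miR-17 family, the seed of MIR106B and MIR93, had 9 of 19 with 5xA and 7 with WT. E2F3 held 5 and 7 regions, CDKN1A 4 and 6, TP53INP1 7 and 2, ZNFX1 6 and 2, BCL2L11 4 and 2, and LATS2, a Hippo pathway kinase, 2 and 2. All TP53INP1 regions of both lists also overlap another gene, and neither of the 2 with WT lies near the downstream gene end, so their assignment to TP53INP1 is uncertain. Targets of miR-34a had 11 of 33 with 5xA and 9 with WT, among them the receptor gene MET and the transcription factor gene MYC (3 and 1 each) and FOSL1 (2 and 2), beside E2F3, CCND1 and CDK6, which this list also holds.

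Targets of miR-21 had 4 of 19 genes with 5xA and 5 with WT. BTG2 held 7 and 6 regions, RHOB 6 and 3, YOD1 5 and 3, CDC25A (also in the miR-16 list) 4 and 1, and TGFBR2 0 and 1. PDCD4 and RECK, commonly cited targets of miR-21, held none in either list. All YOD1 regions also overlap another gene, so their assignment is uncertain too. Targets of miR-181a had 4 of 21 with 5xA and 5 with WT. They were led by the kinase gene HIPK2 (7 and 3), the ERK phosphatase gene DUSP5 (5 and 3) and MCL1 (4 and 3), which the miR-16 list also holds. XIAP held 1 and 2 and DUSP6 0 and 1, the DUSP6 region overlapping another gene as well. Targets of miR-18a had 2 of 17 with 5xA, DICER1 and CDC42 (1 and 0), and 1 with WT. Of the regions in target genes, 104 of 126 with 5xA (82.5%) and 64 of 75 with WT (85.3%) were no more than 5 kb from the downstream end of the gene, the side of the 3′ untranslated region. The 7 5xA regions and 3 WT regions of HIPK2 all lay farther from it, as did those of XIAP (1 and 2), the CDC42 region with 5xA, and the WT regions of TP53INP1 and EZR. Only gene ends were used, so the 5 kb limit does not show which regions lie inside a 3′ untranslated region. The share within 5 kb was not taken over all regions, so it is not read as a trait of the targets.

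For the cluster found in the 5xA list alone, reported targets of miR-182, miR-96 and miR-183 were counted in the same way. Of 24 genes, 6 held a 5xA region and 5 a WT region, and those 5 were in both lists. This overlap too has no count over all protein-coding genes beside it. The transcription factor gene EGR1 held 3 and 2 regions, the integrin gene ITGB1 2 and 1, and EZR, FOXO3 and RARG 1 and 1 each. The EZR region with WT overlaps another gene as well. IRS1, an adaptor of the insulin receptor, held 3 with 5xA and 0 with WT. The forkhead gene FOXO1, a well known target of this cluster, held none in either list.

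**Figure D4:**
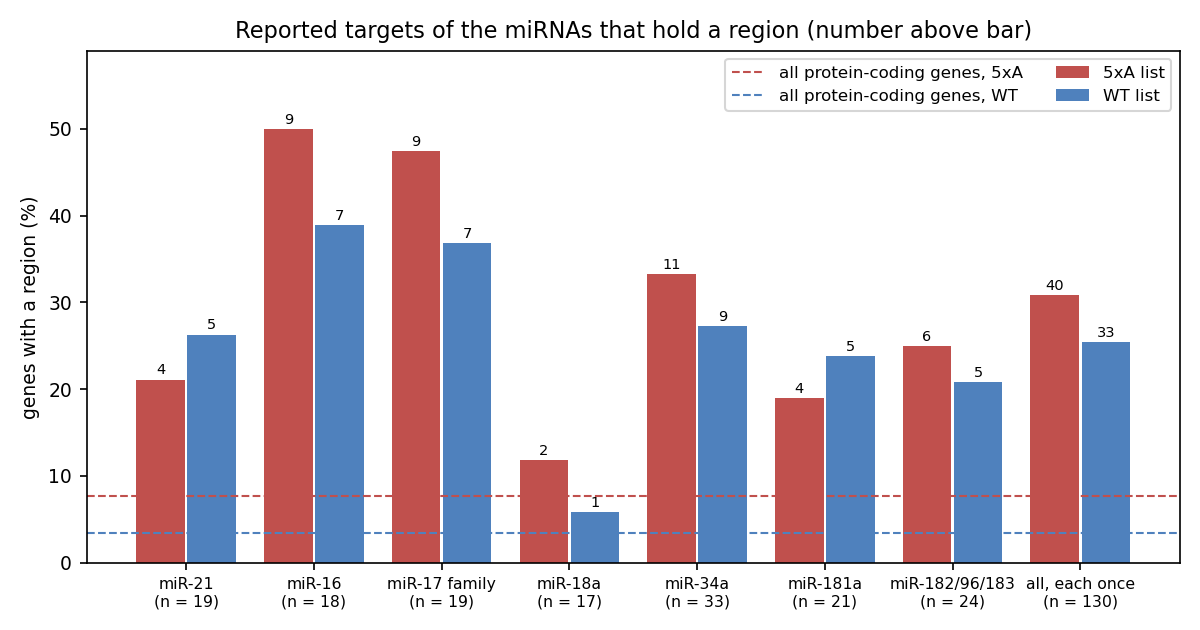
Share of the genes of each target list that held a region (y axis, %), for the 5xA list (red) and the WT list (blue), with the number of genes above each bar and all lists together at the right, each gene counted once. Dashed lines mark 7.70% (5xA) and 3.45% (WT) of all protein-coding genes. The miR-16 and miR-17 family lists have the highest shares and the miR-18a list the lowest. The lists were written with earlier results of these data known. Neither their order nor their distance from the dashed lines is read as a result.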

How the data were processed

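The deposited files are 2 BED lists of regions, from the FH-AGO2 5xA and WT IPs, each named in the labels for both replicates. Per the submitters' processing notes, hg38 was the build and cutadapt 1.9.1 and TopHat2 were among the tools. The score the authors deposited is always 0 and was not used. The sources used here name no region caller, threshold or merging rule, and inputs and knockout IPs (8 samples) were not analysed here. Starts were made 1-based in Python 3.11.15 with pandas 2.3.3. A region counted for a miRNA gene when it overlapped the RefSeq hairpin (GRCh38.p14) by at least 1 base on its strand, known for 1774 of 1913 genes and all 10 described; arms came from RefSeq mature entries. Target and biogenesis genes used the whole gene span on either strand, and all 231 list entries matched a RefSeq symbol. Up to 6 target genes per list were named, by number of regions and then covered bases; genes named for holding no region, the positions in HIPK2 and the arm-to-arm span were picked with their values known. The described genes and all lists were chosen with earlier results of these data known. Overlap counting was tested on simulated data, without the strand rule. No test was made, since the genes were selected on these lists.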

Additional observations from a re-analysis of the deposited data

How the results depend on the processing

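All 26 alternative values stayed within 1.5 times the reported one, and 14 were identical. The largest changes among the described genes came from asking for the region's midpoint inside the hairpin, which left 8 genes with a 5xA region instead of 10, and from the reciprocal overlap of 50%, which left 5 shared genes instead of 7; both come from the 291-base region across MIR106B and MIR93. Over all miRNA genes the counts ran from 27 to 36 with 5xA and from 19 to 22 with WT. Joining regions within 50 bases left the median widths at 66 (5xA) and 65 bases (WT). Target genes with a region numbered 37 to 40 with 5xA and 29 to 33 with WT when regions were limited to 5 kb from the downstream gene end, to places inside a single gene, or, as an addition after seeing the data, to the strand of the gene. No paired analysis was possible because each list pools its 2 replicates, and no replicate could be left out for the same reason. The unknown depth behind each list limits what the absence of a region can show.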
